A study of Mus musculus with 6 samples.

Results

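The chemokine ligand genes of the mouse were followed through compound-induced Sertoli-like cells, cultured Sertoli cells and embryonic fibroblasts. Members were all genes whose symbol is Ccl with a number and an optional letter a to e, Cxcl with a number, Cx3cl1, Xcl1, Pf4 or Ppbp. The rule found 35 genes among the 20007 gene identifiers of the count tables. Of these, 25 had enough reads to be tested, 9 had between 1 and 45 reads over the 6 libraries, and Ccl21b had 0 reads in all 6. Members were chosen by name and not by level, with earlier results of these data known.

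Chemokines are small secreted proteins that bind G protein-coupled receptors on leukocytes and other cells and direct their migration along concentration gradients. Their names follow the spacing of the first conserved cysteines, adjacent in CC chemokines, separated by a residue in CXC chemokines, and further apart in the membrane-anchored CX3CL1. Inflammatory members are induced by cytokines and microbial products, largely through the transcription factor NF-kB, while homeostatic members such as Cxcl12 are made constitutively by stromal cells. In the testis, CXCL12 made by Sertoli cells is known to act on the spermatogonial stem cell niche through CXCR4.

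RNA sequencing on a BGISEQ-500 instrument gave 6 libraries from mice of the KM strain, 2 per group. CiSCs were passaged MEFs that received small molecules, left unnamed in the labels, from 24 h after seeding, and are called Sertoli-like by the study. MSCs were cultured Sertoli cells of testes at postnatal day 60, cells that nurse the developing germ cells. MEFs were fibroblasts of embryos whose age is labelled 13.5 days post coitum, also for CiSCs, while the growth protocol allows 12.5 or 13.5 days. The groups hold no passaged MEFs without compounds, so passaging and compounds cannot be told apart in CiSCs against MEFs, and tissue and age cannot be told apart from cell type in MSCs against MEFs. Separate cultures or animals are not stated for the 2 libraries of any group, so the p-values speak of the spread between libraries alone, which may be technical.

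Libraries held between 19294671 and 20418587 expected counts. Levels are counts per 1000000 library counts (CPM) after library scaling, where 1 read was worth 0.0468 to 0.0543 CPM. A group with 0 reads allows up to 3 reads over its 2 libraries, which is 0.0708 CPM in CiSCs, 0.0806 CPM in MSCs and 0.0769 CPM in MEFs. These limits, and the intervals on read ratios given below, cover counting error only. The labelled cell types were checked against marker lists. All 13 fibroblast markers were detected in all 3 groups, with sums of 29693 and 29676 CPM in CiSCs, 39002 and 41731 CPM in MSCs and 24578 and 25816 CPM in MEFs. Most of each sum came from Col1a1, Col1a2 and Col3a1. Of the 13, 5 were higher and 2 lower in CiSCs than in MEFs, beside 19.6% and 21.3% of all tested genes. In MSCs against MEFs 3 were higher and 5 lower, beside 22.5% and 20.0%. In CiSCs against MEFs the higher ones were Fap, Dcn, Lum, Col3a1 and Fbln1, and the lower ones were Thy1 and Postn. Fap had 235 and 230 CPM in CiSCs, 5.69 and 6.14 CPM in MSCs and 6.02 and 4.10 CPM in MEFs. Thy1 was lower in CiSCs and in MSCs than in MEFs, with 145 and 132 CPM in CiSCs, 4.15 and 4.29 CPM in MSCs and 867 and 687 CPM in MEFs. The 12 Sertoli markers summed to 4849.7 and 4121 CPM in CiSCs, 6034 and 8927 CPM in MSCs and 95.0 and 105 CPM in MEFs. Of 10 tested Sertoli markers, 3 were higher in CiSCs than in MEFs (Clu, Wt1 and Cldn11), 10 were higher in MSCs than in MEFs, and 9 were lower in CiSCs than in MSCs. In these directions, 19.6%, 22.5% and 25.1% of all tested genes were called. Most of the CiSC and MSC sums was the secreted chaperone gene Clu, with 4732 and 4019 CPM in CiSCs and 4850 and 7527 CPM in MSCs. The transcription factor gene Gata4 had 0.0954 and 0.0935 CPM in CiSCs, 239.7 and 265 CPM in MSCs and 0.152 and 0.156 CPM in MEFs, so that CiSCs were not above MEFs for this marker. The receptor gene Fshr had 0 reads in CiSCs, 8 in MSCs and 0 in MEFs.

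The 3 groups differed in which kind of chemokine carried the reads. Members were sorted by the cells best known to make them into 13 myeloid-type genes, 14 stromal-type genes, 6 that both kinds of cell make, and 2 others. This sorting was made with earlier results of these data known. Summed over the members, ligand levels were 919 and 904 CPM in CiSCs, 2396 and 2508 CPM in MSCs and 1700.0 and 1678 CPM in MEFs. Stromal-type genes took 91.5 and 92.0% of these reads in CiSCs, 89.8 and 89.8% in MSCs and 15.7 and 15.6% in MEFs. Myeloid-type genes took 1.00 and 1.23% in CiSCs, 7.80 and 7.73% in MSCs and 32.4 and 49.2% in MEFs. Both libraries of CiSCs and of MSCs thus had mainly stromal-type reads, and both MEF libraries had mainly reads of the other classes.

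**Figure D1:**
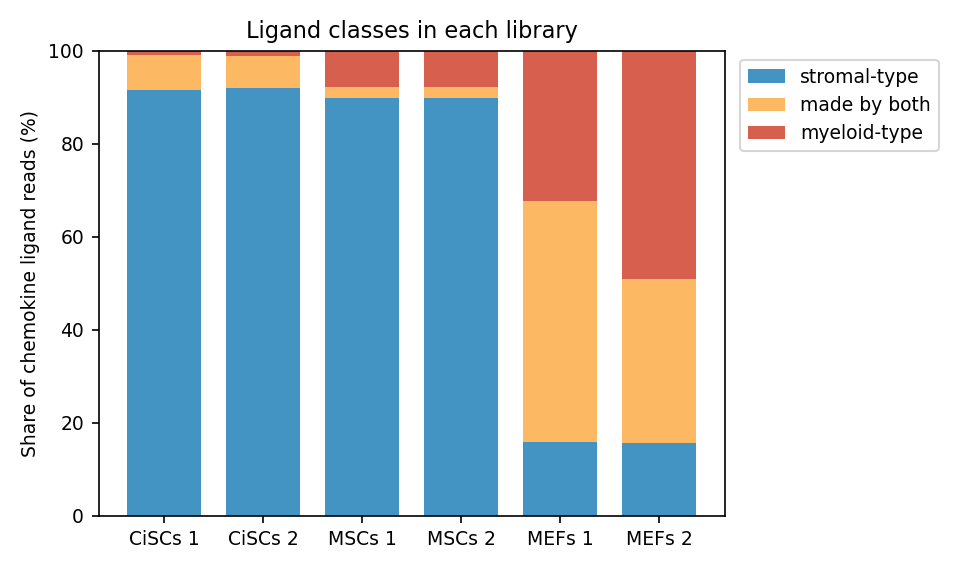
Share of all chemokine ligand reads (y axis, percent, not corrected for transcript length) taken by each class in each of the 6 libraries (x axis). Stromal-type genes fill most of the CiSC and MSC bars (89.8% to 92.0%) and 15.6% to 15.7% of the MEF bars.

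A single gene made up most of the stromal-type reads in CiSCs and another one in MSCs. Cxcl12 took 87.4 and 88.4% of all ligand reads in CiSCs, 13.9 and 11.6% in MSCs and 6.66 and 3.68% in MEFs. Cxcl14 took 0.0519 and 0.0517% in CiSCs, 73.7 and 76.1% in MSCs and 3.74 and 7.03% in MEFs. Without these 2 genes the stromal-type sum was 36.6 and 32.9 CPM in CiSCs, 52.6 and 53.3 CPM in MSCs and 90.7 and 81.4 CPM in MEFs, the reverse order of CiSCs and MEFs. Per kilobase of the longest protein-coding transcript in GENCODE M21, which is not the annotation of the counts, the highest ligand was Cxcl12 in CiSCs (142 RPKM), Cxcl14 in MSCs (1006 RPKM) and Ccl2 in MEFs (624 RPKM). The next ones were Ccl7 (42.7 RPKM) in CiSCs, Cxcl12 (55.4 RPKM) and Ccl6 (55.0 RPKM) in MSCs, and Ccl7 (266 RPKM) and Ccl3 (112 RPKM) in MEFs.

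Macrophage markers moved with the myeloid-type ligands. All 16 of 16 listed macrophage markers had at least 1 read in every group. In CiSCs, Aif1 had 1 read, Ptprc 8 and Spi1 10. The sum of the 16 markers was 36.0 and 53.3 CPM in CiSCs, 1753 and 1633 CPM in MSCs and 12878 and 21067 CPM in MEFs. The largest part of each sum was Lyz2, with 20.3 and 30.3 CPM in CiSCs, 782 and 718 CPM in MSCs and 7158 and 12493 CPM in MEFs. The pan-leukocyte gene Ptprc stood at 0.0954 and 0.281 CPM in CiSCs, 26.1 and 23.9 CPM in MSCs and 168 and 121 CPM in MEFs. Summed myeloid-type ligands were 9.20 and 11.1 CPM in CiSCs, 187 and 194 CPM in MSCs and 551 and 825 CPM in MEFs, in the same order of groups. Within MEFs, the second library had the higher macrophage marker sum and the higher level of all 8 myeloid-type ligands that reached 10 CPM in any group. Of the 16 markers, Ptprc, Adgre1 (329 and 291 CPM) and Mrc1 (319 and 303 CPM) were lower in the second MEF library, and the others were higher. Within MSCs, the first library had the higher marker sum and the lower ligand sum. Set against macrophage markers, myeloid-type ligands had 25.6 and 20.8 reads per 100 marker reads in CiSCs, 10.7 and 11.9 in MSCs and 4.28 and 3.91 in MEFs, so the ratio itself was not constant. Without Ccl6 the ratio was 19.2 and 14.5 in CiSCs, 6.39 and 6.75 in MSCs and 4.19 and 3.81 in MEFs, in the same order of groups. The part of macrophages in the ligand levels was not tested, and in bulk RNA fewer cells of a type and less RNA per cell cannot be told apart. Neutrophil markers (8 listed) summed to at most 42.8 CPM in any library, platelet markers (8 listed) to at most 9.30 CPM and lymphocyte markers (8 of 10 with a count row) to at most 2.71 CPM. The neutrophil gene S100a9 had 0 reads in CiSCs and in MSCs, and Ly6g had 0 in MSCs and in MEFs. Most of the neutrophil marker sum in MEFs was Csf3r, with 19.0 and 40.1 CPM. Camp had 0 reads in CiSCs, 101 in MSCs and 9 in MEFs. Of 3 tested neutrophil markers, Camp was higher in MSCs than in MEFs (log2 fold change 3.52 ± 0.44, edgeR adjusted p = 0.00219) and 1, Csf3r, was lower. In this comparison 22.5% of all tested genes were higher and 20.0% lower.

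**Figure D2:**
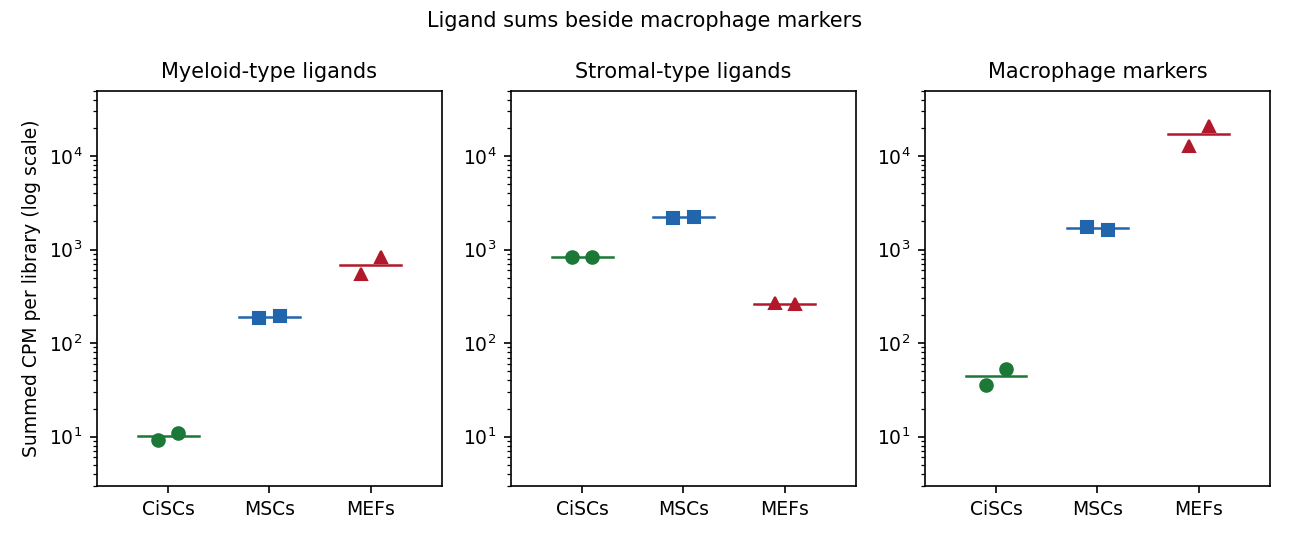
Summed CPM (y axis, log scale) of myeloid-type ligands, stromal-type ligands and 16 macrophage markers by group (x axis); each symbol is a library and each line a group mean. Myeloid-type ligands and macrophage markers are lowest in CiSCs and highest in MEFs, while stromal-type ligands are lowest in MEFs (261 to 268 CPM).

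Each comparison was tested with edgeR's quasi-likelihood test across 15272 genes, and a gene was called at a Benjamini-Hochberg adjusted p under 0.05. In CiSCs against MEFs, 19 of 25 tested ligands were lower and 3 were higher, where 21.3% of all tested genes were lower and 19.6% higher. The median log2 fold change of the ligands was -4.72, and that of all tested genes was -0.0022. In MSCs against MEFs, 14 ligands were lower and 5 higher, beside 20.0% and 22.5% of all tested genes, with medians of -2.31 for the ligands and 0.01 for all genes. In CiSCs against MSCs, 13 were lower and 3 higher, beside 25.1% and 17.7% of all tested genes, with medians of -3.05 and -0.03. In either direction, 40.9%, 42.5% and 42.8% of all tested genes were called in the 3 comparisons in this order. Every pair of comparisons shares the libraries of a group. The 25 tested ligands are those with enough reads in at least 1 group, so these counts do not speak for all 35 members. Leaving out 1 library moved the higher counts. MSCs against MEFs had 4 to 6 higher ligands, and CiSCs against MEFs had 1 higher ligand without the first CiSC library. CiSCs against MSCs had 0 without the first MSC library, 1 without the second MSC library and 5 without either MEF library.

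The classes differed in these counts. They are set beside all tested genes, of which 21.3% were lower and 19.6% higher in CiSCs against MEFs. In MSCs against MEFs these shares were 20.0% and 22.5%, and in CiSCs against MSCs 25.1% and 17.7%. Of 11 tested myeloid-type ligands, 10 were lower in CiSCs than in MEFs, 8 lower and 2 higher in MSCs than in MEFs, and 10 lower in CiSCs than in MSCs, with median log2 fold changes of -6.29, -2.37 and -4.41. Of 9 tested stromal-type ligands, 3 were higher and 4 lower in CiSCs than in MEFs, 3 higher and 2 lower in MSCs than in MEFs, and 3 higher and 3 lower in CiSCs than in MSCs. Their medians were -0.66, 0.19 and 0.12. All 5 tested ligands that both kinds of cell make were lower in CiSCs than in MEFs, 4 of 5 were lower in MSCs than in MEFs, and in CiSCs against MSCs neither edgeR nor DESeq2 called any of the 5 (0 by each; 1 had an unadjusted edgeR p under 0.05).

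**Figure D3:**
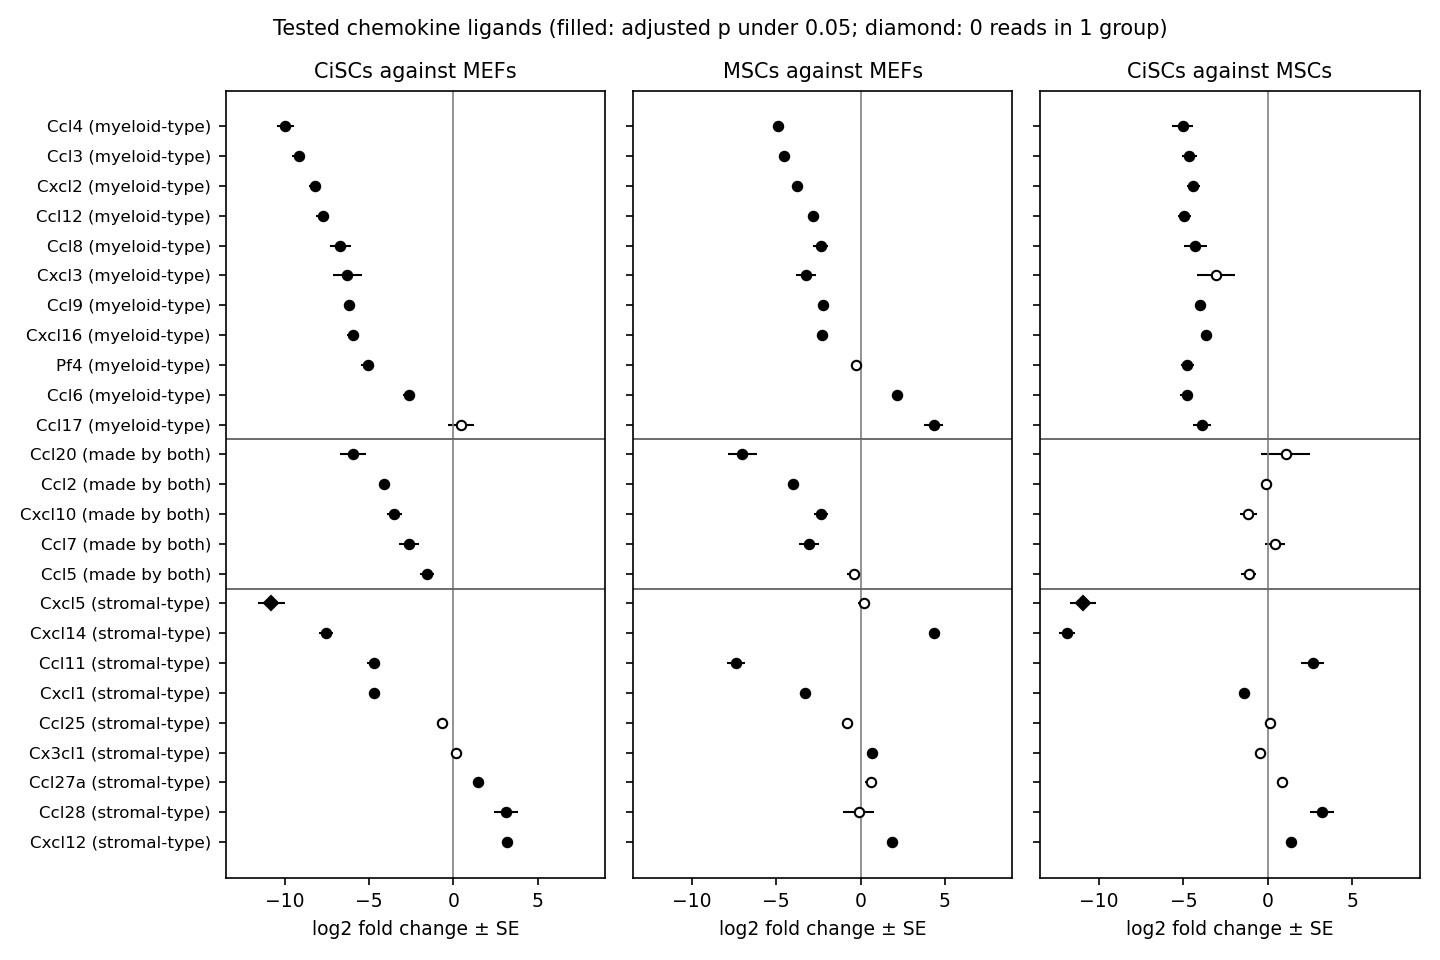
Log2 fold changes ± SE (x axes) of the 25 tested ligands (y axis, by class) in the 3 comparisons, from edgeR. The SE is approximate and was derived from the F statistic of the test. Filled symbols passed an adjusted p under 0.05 and diamonds mark a group with 0 reads, whose fold change depends on the prior count. In the left panel 10 of the 11 myeloid-type ligands lie to the left of 0 and passed.

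Genes listed as ligands of CCR2 and CCR3, receptors of monocytes and eosinophils, were lower in CiSCs and in MSCs than in MEFs in 5 of 5 tested genes. Over all tested genes, 21.3% were lower in CiSCs than in MEFs and 20.0% in MSCs than in MEFs. Ccl2, the main monocyte attractant, had 32.8 and 25.2 CPM in CiSCs, 30.4 and 33.1 CPM in MSCs and 519.6 and 494 CPM in MEFs. Both MEF libraries stood above all others, and the CiSC and MSC ranges overlapped. Ccl2 was lower in CiSCs than in MEFs (log2 fold change -4.13 ± 0.18, edgeR adjusted p = 2.00e-05) and in MSCs against MEFs (log2 fold change -4.00 ± 0.18, edgeR adjusted p = 2.23e-05), and CiSCs against MSCs did not pass (log2 fold change -0.13 ± 0.16, edgeR adjusted p = 0.558). Ccl7, a close relative that also binds CCR2, had 34.1 and 34.2 CPM in CiSCs, 25.0 and 26.0 CPM in MSCs and 343 and 83.6 CPM in MEFs. The first MEF library lay 4.11-fold above the second, the widest gap between replicates among the ligands whose mean reached 10 CPM in a group and that had reads in both libraries. Ccl7 was lower in CiSCs than in MEFs (log2 fold change -2.64 ± 0.60, edgeR adjusted p = 0.0137) and in MSCs than in MEFs (log2 fold change -3.07 ± 0.61, edgeR adjusted p = 0.00797). Its log2 fold change in CiSCs against MEFs was -1.32 without the first MEF library and -3.33 without the second, and in MSCs against MEFs -1.75 and -3.76. Leaving out the first or second CiSC library ended the first call (adjusted p = 0.0835 and 0.0832, edgeR), and leaving out the first or second MSC library ended the second (adjusted p = 0.0729 and 0.0691, edgeR). CiSCs lay above MSCs without overlap (log2 fold change 0.42 ± 0.58, edgeR adjusted p = 0.597), and this difference passed without a MEF library (adjusted p = 0.00462 without the first and 0.00437 without the second, edgeR) and with CiSCs and MSCs alone in the fit (0.00281, edgeR).

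The other 3 tested genes of the CCR2 and CCR3 list were also highest in MEFs, and they differed in the order of CiSCs and MSCs. Ccl12, a mouse CCR2 ligand, had 0.238 and 0.140 CPM in CiSCs, 6.70 and 5.43 CPM in MSCs and 34.1 and 50.0 CPM in MEFs. The 3 groups did not overlap, and all 3 comparisons passed, with log2 fold changes of -7.75 ± 0.37 for CiSCs against MEFs, -2.79 ± 0.25 for MSCs against MEFs and -4.96 ± 0.39 for CiSCs against MSCs (edgeR adjusted p = 2.63e-05, 2.92e-04 and 1.38e-04). Ccl8, a chemokine gene of macrophages, had 0.0954 and 0.140 CPM in CiSCs, 2.44 and 2.50 CPM in MSCs and 7.53 and 18.1 CPM in MEFs, again in 3 separate ranges. Ccl8 was lower in CiSCs than in MEFs (log2 fold change -6.69 ± 0.63, edgeR adjusted p = 3.60e-04), in MSCs than in MEFs (log2 fold change -2.37 ± 0.44, edgeR adjusted p = 0.00575) and in CiSCs than in MSCs (log2 fold change -4.32 ± 0.68, edgeR adjusted p = 0.00279). Without the second MEF library its log2 fold change was -5.92 in CiSCs against MEFs and -1.61 in MSCs against MEFs. The second of these calls ended without the first or second MSC library (adjusted p = 0.0557 and 0.0529, edgeR). Ccl11, the eosinophil attractant eotaxin that fibroblasts make, had 1.29 and 0.468 CPM in CiSCs, 0.106 and 0.163 CPM in MSCs and 23.8 and 22.8 CPM in MEFs. Here CiSCs stood above MSCs, with 37 reads in CiSCs and 5 in MSCs. Ccl11 was lower in CiSCs than in MEFs (log2 fold change -4.72 ± 0.40, edgeR adjusted p = 2.29e-04) and in MSCs than in MEFs (log2 fold change -7.37 ± 0.52, edgeR adjusted p = 1.10e-04), and higher in CiSCs than in MSCs (log2 fold change 2.65 ± 0.66, edgeR adjusted p = 0.0180). Without the first CiSC library the first fold change was -5.64 and the last 1.77 (adjusted p = 0.0609, edgeR), and the last call also ended without the first or second MSC library (adjusted p = 0.115 and 0.0813, edgeR). Ccl24, another eosinophil attractant, had 1 read in CiSCs, 3 in MSCs and 3 in MEFs and did not pass the filter on low counts.

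**Figure D4:**
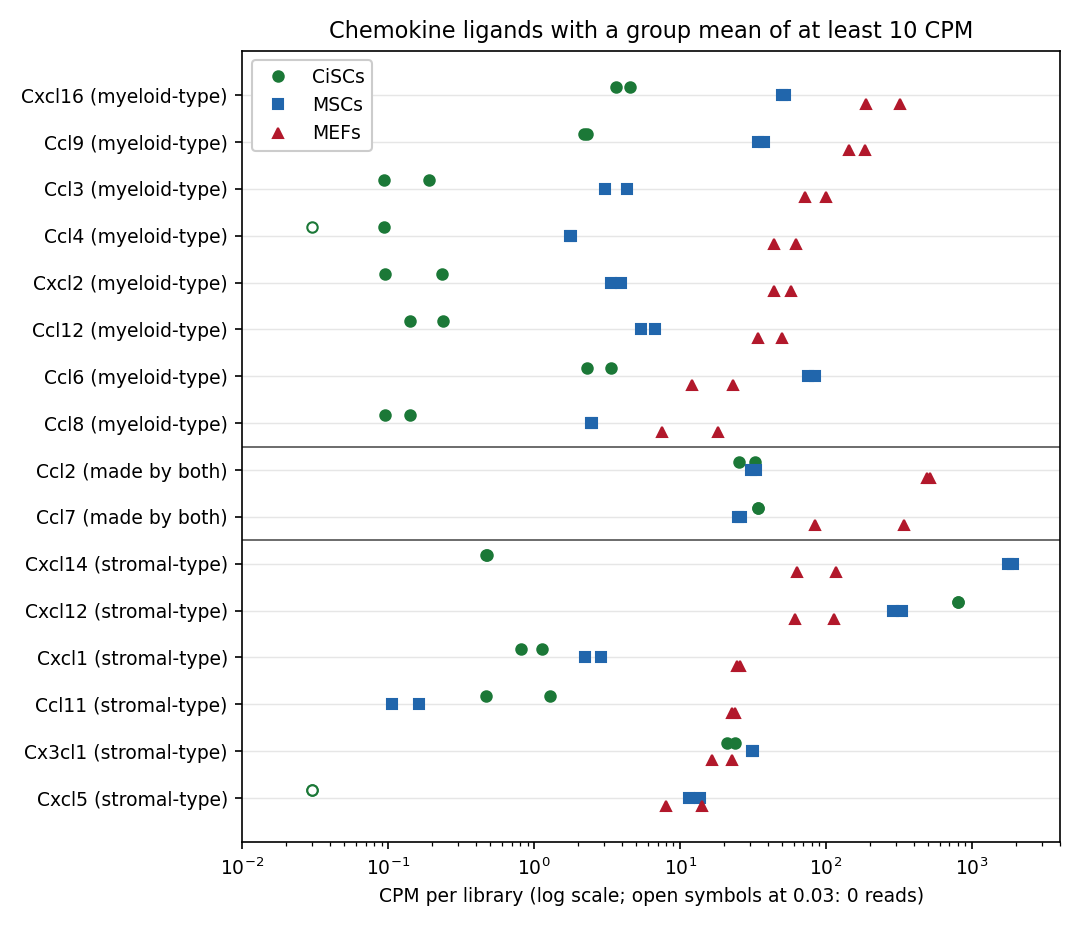
CPM in each library (x axis, log scale) of the 16 ligands whose mean reached 10 CPM in any group (y axis, by class); open symbols mark libraries with 0 reads. CiSCs lie to the left of the other groups for all 8 myeloid-type ligands and to the right for Cxcl12 (799 to 803 CPM), and MSCs lie to the right for Cxcl14 (1766 to 1908 CPM).

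The inflammatory CC ligand genes Ccl3, Ccl4, Ccl5, Ccl6 and Ccl9, typical products of activated macrophages, were lower in CiSCs than in MEFs in 5 of 5 tested genes, and in MSCs against MEFs 3 were lower and Ccl6 was higher. The share of lower genes among all tested genes was 21.3% in the first comparison. In the second, 20.0% were lower and 22.5% higher. Ccl3 had 0.191 and 0.0935 CPM in CiSCs, 4.36 and 3.04 CPM in MSCs and 71.7 and 99.2 CPM in MEFs. Each group held a separate range, and the log2 fold change was -9.17 ± 0.39 in CiSCs against MEFs, -4.53 ± 0.27 in MSCs against MEFs and -4.65 ± 0.45 in CiSCs against MSCs (edgeR adjusted p = 1.83e-05, 5.62e-05 and 3.23e-04). Ccl4 had 0 and 0.0935 CPM in CiSCs, 1.75 and 1.79 CPM in MSCs and 44.0 and 62.1 CPM in MEFs. With 2 reads in CiSCs, the read ratio of MEFs to CiSCs was 1121 (exact binomial 95% interval 309.8 to 9259) and that of MSCs to CiSCs 37.5 (exact binomial 95% interval 9.99 to 316). By the test Ccl4 was lower in CiSCs than in MEFs (log2 fold change -9.95 ± 0.49, edgeR adjusted p = 2.73e-05), in MSCs than in MEFs (log2 fold change -4.90 ± 0.32, edgeR adjusted p = 7.93e-05) and in CiSCs than in MSCs (log2 fold change -5.05 ± 0.64, edgeR adjusted p = 0.00104). Its fitted log2 fold changes were -9.07 in CiSCs against MEFs and -4.14 in CiSCs against MSCs without the first CiSC library, and -13.03 and -8.10 without the second, which held both reads, so that these last values depend on the prior count. Reads had been divided between Ccl3 and Ccl4, since their values added up to a whole number in 6 of 6 libraries (tolerance 1e-06) while Ccl3 alone was whole in 2 (tolerance 1e-09), so the split between these neighbours is uncertain.

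Ccl9 and Ccl6 lie beside each other on the chromosome and both encode CCR1 ligands that mouse myeloid cells make. Ccl9 had 2.29 and 2.20 CPM in CiSCs, 34.2 and 37.4 CPM in MSCs and 143 and 186 CPM in MEFs. It was highest in MEFs and lowest in CiSCs without overlap, with log2 fold changes of -6.19 ± 0.21 for CiSCs against MEFs, -2.20 ± 0.17 for MSCs against MEFs and -3.99 ± 0.20 for CiSCs against MSCs (edgeR adjusted p = 1.49e-05, 1.59e-04 and 2.54e-05). Ccl6 had 2.29 and 3.37 CPM in CiSCs, 74.8 and 83.7 CPM in MSCs and 12.0 and 23.0 CPM in MEFs. Both MSC libraries stood above both MEF libraries, the opposite of Ccl9, and the increase in MSCs against MEFs passed (log2 fold change 2.18 ± 0.32, edgeR adjusted p = 0.00235). It was lower in CiSCs than in MEFs (log2 fold change -2.62 ± 0.36, edgeR adjusted p = 0.00179) and than in MSCs (log2 fold change -4.80 ± 0.37, edgeR adjusted p = 1.32e-04). For each read of Ccl9 there were 0.994 and 1.53 reads of Ccl6 in CiSCs, 2.19 and 2.24 in MSCs and 0.0838 and 0.123 in MEFs. Values of Ccl9 were not whole in 6 libraries and those of Ccl6 in 0, so the Ccl9 side is less certain. Per 1000 reads of the 16 macrophage markers, Ccl6 had 63.6 and 63.2 reads in CiSCs, 42.7 and 51.3 in MSCs and 0.931 and 1.09 in MEFs. Ccl6 was thus higher in MSCs than in MEFs while the macrophage marker sum was lower. Ccl5, a chemokine gene of T cells and macrophages, was low throughout, with 0.572 and 0.514 CPM in CiSCs, 0.903 and 1.52 CPM in MSCs and 1.37 and 1.87 CPM in MEFs. It was lower in CiSCs than in MEFs (log2 fold change -1.56 ± 0.43, edgeR adjusted p = 0.0279), a call that ended without the first CiSC, second CiSC, second MEF or second MSC library (adjusted p = 0.122, 0.148, 0.0842 and 0.0531, edgeR) and by DESeq2 (adjusted p = 0.0638).

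Ligands of CXCR2, which recruit neutrophils, were lower in CiSCs than in MEFs in 4 of 4 tested genes, in MSCs than in MEFs in 3 of 4 and in CiSCs than in MSCs in 3 of 4. Among all tested genes, 21.3%, 20.0% and 25.1% were lower in these 3 comparisons. Cxcl1 had 0.811 and 1.12 CPM in CiSCs, 2.87 and 2.23 CPM in MSCs and 24.7 and 25.8 CPM in MEFs. The ranges of the 3 groups did not overlap. Cxcl1 was lower in CiSCs than in MEFs (log2 fold change -4.70 ± 0.25, edgeR adjusted p = 3.79e-05), in MSCs than in MEFs (log2 fold change -3.30 ± 0.23, edgeR adjusted p = 1.01e-04) and in CiSCs than in MSCs (log2 fold change -1.39 ± 0.26, edgeR adjusted p = 0.00582), the last not without the first CiSC library (adjusted p = 0.0509, edgeR). Cxcl2, which macrophages make in large amounts on stimulation, had 0.0954 and 0.234 CPM in CiSCs, 3.93 and 3.37 CPM in MSCs and 43.9 and 57.4 CPM in MEFs. It fell with the same order of groups and log2 fold changes of -8.21 ± 0.34, -3.79 ± 0.24 and -4.41 ± 0.38 in the same order of comparisons as for Cxcl1 (edgeR adjusted p = 1.83e-05, 7.39e-05 and 2.02e-04). Without the second CiSC library, the CiSC values were -8.99 against MEFs and -5.17 against MSCs. Cxcl3, a further gene of this cluster, had 0.0477 and 0 CPM in CiSCs, 0.106 and 0.380 CPM in MSCs and 2.17 and 2.49 CPM in MEFs. Its reads were shared with Cxcl2, as the 2 values added up to a whole number in 6 of 6 libraries (tolerance 1e-06), so its low level is uncertain. Cxcl3 was lower in CiSCs than in MEFs (log2 fold change -6.29 ± 0.85, edgeR adjusted p = 0.00176, 1 read in CiSCs) and in MSCs than in MEFs (log2 fold change -3.24 ± 0.62, edgeR adjusted p = 0.00687), and did not pass in CiSCs against MSCs (log2 fold change -3.05 ± 1.13, edgeR adjusted p = 0.0704). The read ratio of MEFs to CiSCs was 98.8 (exact binomial 95% interval 17.3 to 3943). Leaving out the first CiSC library, which held the read, gave -8.53 in the first comparison, a value that depends on the prior count, and leaving out the second gave -5.46. In the second comparison the value was -2.60 without the first MSC library, no longer passing (adjusted p = 0.0618, edgeR), and -4.38 without the second.

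Cxcl5, a CXCR2 ligand of epithelial and stromal cells, had another pattern. Its values were not whole in 4 libraries, so its levels there are less certain. It had 0 reads in both CiSC libraries, 11.5 and 13.8 CPM in MSCs and 14.2 and 8.0 CPM in MEFs. CiSCs were thus at least 157-fold lower than MEFs and at least 178-fold lower than MSCs, taking 3 reads over the CiSC group as the limit (edgeR adjusted p = 3.02e-04 and 2.23e-04). MSCs and MEFs overlapped, and the test did not pass (log2 fold change 0.19 ± 0.32, edgeR adjusted p = 0.667), although it did without the first MEF library (log2 fold change 0.63, adjusted p = 0.0468, edgeR) and the sign turned without the second (-0.17). Cxcl15 had 8 reads, all in the second MEF library, and did not pass the filter on low counts.

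The promoters of 3 CXCR2 ligand genes that were lower in CiSCs and in MSCs than in MEFs are printed because they share a stretch of letters. The NF-kB consensus site was searched on both strands in the 250 bases before each start in the RefSeq promoter table (GRCm38.p6), a search chosen after the levels had been seen. It was found in 6 of the 26 members with an entry, Ccl9, Ccl20, Cxcl1, Cxcl2, Cxcl3 and Cxcl10. By window, it was in 6 of the 32 member windows and in 3.90% of all 32851 promoter windows. Its form GGGAATTTCC was copied from the match in Cxcl1, so its presence in Cxcl1 was fixed in advance. Searched likewise, this form was in 3 of the 26 members, Cxcl1, Cxcl2 and Cxcl3. By window, it was in 3 of the 32 member windows and in 0.0852% of all windows. These 3 genes lie in the same gene cluster, so their matches may not be independent. In each of the 3, this match overlaps a second match of the consensus on the other strand by all but 1 base. Cxcl10, with 2 separate matches, is shown beside them, and Cxcl12 and Cxcl14, without a match, are shown because they carried most of the ligand reads in CiSCs and MSCs. Capitals mark the matches, 5′ to 3′ on the strand of the gene.
Cxcl1 (chr5:90890995-90891244, plus strand): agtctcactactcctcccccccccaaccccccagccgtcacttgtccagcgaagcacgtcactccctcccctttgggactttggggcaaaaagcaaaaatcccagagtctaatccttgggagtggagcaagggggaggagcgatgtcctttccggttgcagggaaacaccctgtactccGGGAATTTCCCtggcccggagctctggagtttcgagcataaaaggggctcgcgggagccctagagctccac
Cxcl2 (chr5:90903649-90903898, plus strand): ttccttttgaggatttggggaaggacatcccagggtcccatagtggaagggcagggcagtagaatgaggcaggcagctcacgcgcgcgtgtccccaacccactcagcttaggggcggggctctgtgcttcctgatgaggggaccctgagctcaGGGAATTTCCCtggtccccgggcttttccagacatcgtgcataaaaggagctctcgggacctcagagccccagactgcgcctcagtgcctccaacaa
Cxcl3 (chr5:90785851-90786100, plus strand): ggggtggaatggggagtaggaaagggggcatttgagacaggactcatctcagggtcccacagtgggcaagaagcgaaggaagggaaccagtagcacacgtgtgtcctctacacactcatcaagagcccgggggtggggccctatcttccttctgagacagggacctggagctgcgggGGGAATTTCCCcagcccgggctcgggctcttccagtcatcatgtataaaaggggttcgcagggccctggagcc
Cxcl10 (chr5:92348890-92349139, minus strand): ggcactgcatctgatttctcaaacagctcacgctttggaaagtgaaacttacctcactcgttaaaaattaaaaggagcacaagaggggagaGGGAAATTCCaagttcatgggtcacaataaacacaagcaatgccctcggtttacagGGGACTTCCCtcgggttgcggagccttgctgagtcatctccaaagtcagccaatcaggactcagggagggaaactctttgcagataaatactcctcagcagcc
Cxcl12 (chr6:117168285-117168534, plus strand): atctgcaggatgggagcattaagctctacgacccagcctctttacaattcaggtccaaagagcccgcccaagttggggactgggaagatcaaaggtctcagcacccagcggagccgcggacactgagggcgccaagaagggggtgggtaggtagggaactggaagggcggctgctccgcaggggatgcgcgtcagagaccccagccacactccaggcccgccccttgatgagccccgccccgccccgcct
Cxcl14 (chr13:56296552-56296801, minus strand): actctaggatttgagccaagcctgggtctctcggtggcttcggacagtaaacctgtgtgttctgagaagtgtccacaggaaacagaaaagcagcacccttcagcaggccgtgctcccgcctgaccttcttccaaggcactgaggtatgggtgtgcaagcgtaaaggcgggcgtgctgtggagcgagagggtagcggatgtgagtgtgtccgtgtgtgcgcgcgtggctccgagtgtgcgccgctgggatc
The match lies 71 to 61 bases before the start in Cxcl1, 97 to 87 in Cxcl2 and 73 to 63 in Cxcl3. A match describes the letters of the reference and is neither a measured binding site nor a cause, and no match says only that these letters are not in this window. By class, the consensus was found in 3 of 10 myeloid-type members with an entry, 1 of 12 stromal-type members and 2 of 3 of those made by both.

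Ligands of CXCR3, which attract activated T cells and are induced by interferons, stood below 10 CPM in all 6 libraries. Cxcl10 had 0.763 and 0.374 CPM in CiSCs, 0.850 and 1.68 CPM in MSCs and 6.12 and 6.81 CPM in MEFs. Both MEF libraries stood above the rest, and it was lower in CiSCs than in MEFs (log2 fold change -3.49 ± 0.46, edgeR adjusted p = 0.00147) and in MSCs than in MEFs (log2 fold change -2.35 ± 0.42, edgeR adjusted p = 0.00519). CiSCs against MSCs did not pass (log2 fold change -1.15 ± 0.49, edgeR adjusted p = 0.104). Without the first CiSC library the value in CiSCs against MEFs was -4.10. Cxcl9 had 25 reads in CiSCs, 6 in MSCs and 14 in MEFs and did not pass the filter on low counts. Pf4, the platelet factor that resident macrophages also make, had 0.0954 and 0.187 CPM in CiSCs, 3.67 and 4.45 CPM in MSCs and 4.80 and 5.09 CPM in MEFs. MSCs lay just below MEFs, with no call (log2 fold change -0.29 ± 0.26, edgeR adjusted p = 0.416), and CiSCs were below both, with values of -5.07 ± 0.38 on the log2 scale against MEFs and -4.78 ± 0.39 against MSCs (edgeR adjusted p = 1.44e-04 and 1.52e-04). Platelet markers summed to 8.35 and 4.77 CPM in CiSCs, 2.66 and 3.58 CPM in MSCs and 3.69 and 9.30 CPM in MEFs, and their part in the Pf4 level was not tested.

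Of 7 tested homeostatic ligands, 3 were higher and 2 lower in CiSCs than in MEFs, 3 higher and 1 lower in MSCs than in MEFs, and 2 higher and 2 lower in CiSCs than in MSCs. Over all tested genes, 19.6% were higher and 21.3% lower in the first comparison. In the second these shares were 22.5% and 20.0%, and in the third 17.7% and 25.1%. With 7 genes nothing is read from the homeostatic counts. Cxcl12, the CXCR4 ligand that retains stem and progenitor cells in their niches, had 803 and 799 CPM in CiSCs, 333 and 290.0 CPM in MSCs and 113 and 61.8 CPM in MEFs. The 3 groups held separate ranges, with CiSCs highest and MEFs lowest. Cxcl12 was higher in CiSCs than in MEFs (log2 fold change 3.19 ± 0.30, edgeR adjusted p = 3.40e-04), in MSCs than in MEFs (log2 fold change 1.83 ± 0.28, edgeR adjusted p = 0.00283) and in CiSCs than in MSCs (log2 fold change 1.36 ± 0.28, edgeR adjusted p = 0.00826). The last call ended without the first or second MSC library (adjusted p = 0.0554 and 0.0790, edgeR), with CiSCs still higher in both. Cxcl14, a tissue chemokine of epithelia and stroma, had 0.477 and 0.468 CPM in CiSCs, 1766 and 1908 CPM in MSCs and 63.7 and 118 CPM in MEFs. CiSCs lay below MEFs (log2 fold change -7.57 ± 0.42, edgeR adjusted p = 4.34e-05), MSCs lay above MEFs (log2 fold change 4.34 ± 0.31, edgeR adjusted p = 1.25e-04), and CiSCs lay below MSCs by the largest fitted change among the tested ligands with reads in all 3 groups (log2 fold change -11.91 ± 0.47, edgeR adjusted p = 1.33e-05). The ratio of Cxcl12 to Cxcl14 reads was 1685 and 1708 in CiSCs, 0.189 and 0.152 in MSCs and 1.78 and 0.524 in MEFs.

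Further homeostatic ligands were expressed at low levels. Ccl28, a mucosal ligand of CCR10, had 1.53 and 2.10 CPM in CiSCs, 0.0531 and 0.326 CPM in MSCs and 0.303 and 0.104 CPM in MEFs, with CiSCs above both other groups. Its values were not whole in 6 libraries, so its low level is less certain. It was higher in CiSCs than in MEFs (log2 fold change 3.11 ± 0.71, edgeR adjusted p = 0.0140) and than in MSCs (log2 fold change 3.23 ± 0.72, edgeR adjusted p = 0.0120). The first call ended without the first or second CiSC library (adjusted p = 0.0550 and 0.0914, edgeR) and its value was 4.02 without the first MEF library. The second call ended without the second CiSC or the first MSC library (log2 fold change 2.97 and 2.46, adjusted p = 0.0755 and 0.0812, edgeR), and its value was 4.94 without the second MSC library. Ccl27a, a skin-homing ligand of CCR10, had 6.92 and 5.00 CPM in CiSCs, 2.82 and 3.75 CPM in MSCs and 1.82 and 2.55 CPM in MEFs. It was higher in CiSCs than in MEFs (log2 fold change 1.45 ± 0.31, edgeR adjusted p = 0.0112), but not without the first CiSC library (adjusted p = 0.0865, edgeR). Against MSCs it missed the threshold (log2 fold change 0.86 ± 0.30, edgeR adjusted p = 0.0600) and passed without the first or second MEF library (adjusted p = 0.0187 and 0.0200, edgeR) and with the 2 groups alone in the fit (0.0150, edgeR). Ccl27a has near-identical copies, so its value is uncertain, and the same holds for Ccl27b (13, 6 and 8 reads in CiSCs, MSCs and MEFs) and Ccl21a (9, 19 and 6 reads).

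Ccl17, a CCR4 ligand of dendritic cells and macrophages, had 0.191 and 0.0935 CPM in CiSCs, 2.18 and 2.17 CPM in MSCs and 0.0506 and 0.156 CPM in MEFs. It was higher in MSCs than in MEFs (log2 fold change 4.32 ± 0.57, edgeR adjusted p = 0.00149) and lower in CiSCs than in MSCs (log2 fold change -3.88 ± 0.54, edgeR adjusted p = 0.00159), while its CiSC and MEF ranges overlapped. The first of these values was 3.72 without the first MEF library and 5.26 without the second, with 4 reads in MEFs. Ccl20, the CCR6 ligand, had 0.0477 and 0.187 CPM in CiSCs, 0.106 and 0 CPM in MSCs and 10.6 and 4.78 CPM in MEFs. MEFs were above the others, and Ccl20 was lower in CiSCs (log2 fold change -5.95 ± 0.76, edgeR adjusted p = 0.00136) and in MSCs (log2 fold change -7.01 ± 0.87, edgeR adjusted p = 0.00112) than in MEFs. With 2 reads in MSCs, the read ratio of MEFs to MSCs was 144 (exact binomial 95% interval 39.5 to 1195). Its value in CiSCs against MEFs was -5.33, -7.19 and -5.29 without the first CiSC, the second CiSC and the first MEF library. In MSCs against MEFs it was -10.26, -6.10 and -6.35 without the first MSC, the second MSC and the first MEF library, and the first of these values depends on the prior count, as the second MSC library had 0 reads. Ccl25, the thymic and intestinal CCR9 ligand, had 2.05 and 2.62 CPM in CiSCs, 2.34 and 1.95 CPM in MSCs and 3.08 and 4.31 CPM in MEFs and passed in none of the 3 comparisons by edgeR or DESeq2. Without the first MEF library it was lower in CiSCs than in MEFs (log2 fold change -0.91, adjusted p = 0.0345, edgeR) and in MSCs than in MEFs (-1.04, adjusted p = 0.0212, edgeR). Of the remaining members, Ccl22 had 0, 0 and 7 reads in CiSCs, MSCs and MEFs, Cxcl13 had 3, 0 and 6, Ccl1 had 1, 0 and 1, and Cxcl17 had 1, 0 and 0. These 4 genes did not pass the filter on low counts. Taking 3 reads over the group as the limit, Ccl22 was at least 2.55-fold lower in CiSCs and at least 2.24-fold lower in MSCs than in MEFs, and Cxcl13 at least 1.93-fold lower in MSCs than in MEFs. In an edgeR fit without the filter, 0 of the 9 members that had reads but did not pass it were called in any comparison. The 1 value with an unadjusted p under 0.05 was that of Ccl22 in CiSCs against MEFs (edgeR adjusted p = 0.118).

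The 2 ligands that are made as membrane proteins and released by cleavage went separate ways. Cxcl16, the CXCR6 ligand and scavenger receptor of macrophages, had 3.62 and 4.54 CPM in CiSCs, 52.6 and 49.6 CPM in MSCs and 187 and 321 CPM in MEFs. All 3 groups held separate ranges, with log2 fold changes of -5.96 ± 0.33 for CiSCs against MEFs, -2.31 ± 0.27 for MSCs against MEFs and -3.64 ± 0.30 for CiSCs against MSCs (edgeR adjusted p = 4.15e-05, 8.36e-04 and 1.66e-04). Cx3cl1, or fractalkine, had 23.6 and 20.9 CPM in CiSCs, 31.6 and 31.1 CPM in MSCs and 22.6 and 16.6 CPM in MEFs. Among the 16 ligands that reached 10 CPM it had the smallest ratio of highest to lowest library, lying between 16.6 and 31.6 CPM over the 6 libraries. CiSCs and MEFs overlapped (log2 fold change 0.18 ± 0.18, edgeR adjusted p = 0.454), although the test passed without the first MEF library (log2 fold change 0.40, adjusted p = 0.0344, edgeR) and the sign turned without the second (-0.02). MSCs were higher than MEFs (log2 fold change 0.68 ± 0.18, edgeR adjusted p = 0.0249), a call that ended without the first or second CiSC library (adjusted p = 0.0649 and 0.0650, edgeR), without the first or second MSC library (0.130 and 0.116) and with the 2 groups alone in the fit (0.0631). CiSCs against MSCs missed the threshold (log2 fold change -0.50 ± 0.18, edgeR adjusted p = 0.0679) and passed without the first or second MEF library (adjusted p = 0.00486 and 0.00372, edgeR) and with those groups alone (0.00412). The 6 markers of endothelial cells, which also make CX3CL1 and CXCL12, summed to 11.0 and 13.4 CPM in CiSCs, 95.2 and 99.9 CPM in MSCs and 21.2 and 31.1 CPM in MEFs, and their part in these levels was not tested.

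Many members lie side by side in the genome. In the RefSeq table of GRCm38.p6, Ccl2, Ccl7, Ccl11, Ccl12, Ccl8 and Ccl1 follow each other with no protein-coding gene between them, and so do Ccl5, Ccl9, Ccl6, Ccl3 and Ccl4, the genes Pf4, Cxcl3, Cxcl15, Cxcl1 and Cxcl2, and the genes Ccl22, Cx3cl1 and Ccl17. In the first cluster, all 5 tested genes (Ccl2, Ccl7, Ccl11, Ccl12 and Ccl8) were lower in CiSCs than in MEFs and in MSCs than in MEFs. Among all tested genes, 21.3% were lower in CiSCs than in MEFs and 20.0% in MSCs than in MEFs. In the second cluster, Ccl9, Ccl3 and Ccl4 were lower and Ccl6 was higher in MSCs than in MEFs. In the third, Cxcl1, Cxcl2 and Cxcl3 were lower in both CiSCs and MSCs than in MEFs, and Pf4 was lower in CiSCs and did not pass in MSCs. In the last cluster, Ccl17 and Cx3cl1 were higher in MSCs than in MEFs, and Ccl22 had 7 reads over all libraries. Cxcl12 and Cxcl14, which have no other member beside them, had the highest levels per length in CiSCs and in MSCs.

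Receptors were read beside their ligands. Of 18 signalling chemokine receptor genes, 17 had a count row and 9 were tested. In CiSCs against MEFs 6 were lower and 1 higher, beside 21.3% and 19.6% of all tested genes. In MSCs against MEFs 6 were lower and 0 higher, beside 20.0% and 22.5% of all tested genes. In CiSCs against MSCs 4 were lower and 0 higher, beside 25.1% and 17.7%. The 9 tested receptors are those with enough reads in at least 1 group. Their median log2 fold changes were -5.44, -1.41 and -3.25, and the first was -4.61 with Cxcr3, which had 0 reads in CiSCs, set at the limit of 3 reads. The third is the fitted value of Cxcr3, with 0 reads in CiSCs and 2 in MSCs, and depends on the prior count. Cxcr4, the receptor of CXCL12, had 0.191 and 0.374 CPM in CiSCs, 3.40 and 4.62 CPM in MSCs and 52.2 and 101 CPM in MEFs. It was highest in MEFs, where Cxcl12 was lowest, and was lower in CiSCs than in MEFs (log2 fold change -8.05 ± 0.52, edgeR adjusted p = 7.51e-05), in MSCs than in MEFs (log2 fold change -4.26 ± 0.38, edgeR adjusted p = 2.91e-04) and in CiSCs than in MSCs (log2 fold change -3.79 ± 0.56, edgeR adjusted p = 0.00217). Without the second CiSC library the first of these values was -8.64. Cx3cr1, the fractalkine receptor of monocytes and macrophages, had 0.238 and 1.17 CPM in CiSCs, 21.5 and 15.4 CPM in MSCs and 248 and 267 CPM in MEFs. Its groups lay in the order of the macrophage markers, unlike those of its ligand Cx3cl1, and it was lower in CiSCs than in MEFs (log2 fold change -8.50 ± 0.51, edgeR adjusted p = 5.75e-05; -7.79 without the first and -10.07 without the second CiSC library).

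Ccr1, the receptor gene of several inflammatory CC ligands, had 0.620 and 0.795 CPM in CiSCs, 15.7 and 16.3 CPM in MSCs and 32.2 and 29.8 CPM in MEFs. All 3 groups were apart, and it was lower in CiSCs than in MEFs (log2 fold change -5.44 ± 0.20, edgeR adjusted p = 1.61e-05) and than in MSCs (log2 fold change -4.48 ± 0.20, edgeR adjusted p = 1.89e-05). Of the 9 tested signalling receptors, the 1 that was higher in CiSCs than in MEFs was Ccr10, named because of this result, whose ligands are CCL27 and CCL28. It had 1.29 and 1.73 CPM in CiSCs, 0.797 and 0.380 CPM in MSCs and 0.303 and 0.208 CPM in MEFs. The increase (log2 fold change 2.53 ± 0.53, edgeR adjusted p = 0.0103) did not pass without the second CiSC library (adjusted p = 0.0785, edgeR). Its ligand genes Ccl28 and Ccl27a were also higher in CiSCs than in MEFs, all at low levels.

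Atypical receptors bind chemokines without G protein signalling, and several take them up for degradation. Of 5 such genes 3 were tested. Ackr4, which scavenges CCL19, CCL21 and CCL25, had 10.9 and 9.63 CPM in CiSCs, 17.4 and 20.2 CPM in MSCs and 0.0506 and 0.104 CPM in MEFs, so CiSCs and MSCs both stood above MEFs. It was higher in CiSCs than in MEFs (log2 fold change 6.95 ± 0.34, edgeR adjusted p = 2.68e-05) and in MSCs than in MEFs (log2 fold change 7.82 ± 0.33, edgeR adjusted p = 1.87e-05), and with 3 reads in MEFs the read ratio of CiSCs to MEFs was 133 (exact binomial 95% interval 45.3 to 649). It was lower in CiSCs than in MSCs (log2 fold change -0.87 ± 0.19, edgeR adjusted p = 0.0105), a call that ended without the first CiSC, the second CiSC or the second MSC library (adjusted p = 0.0587, 0.0938 and 0.0997, edgeR). Ccrl2, a receptor-like gene of activated myeloid cells, had 0.906 and 0.702 CPM in CiSCs, 0.850 and 2.06 CPM in MSCs and 26.8 and 40.5 CPM in MEFs. It was lower in CiSCs (log2 fold change -5.38 ± 0.45, edgeR adjusted p = 2.13e-04) and in MSCs (log2 fold change -4.53 ± 0.42, edgeR adjusted p = 3.30e-04) than in MEFs, and the MSC value was -5.29 without the second MSC library. Ackr3 was tested and not called in any of the 3 comparisons.

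Among 18 tested inducers of inflammatory chemokines and NF-kB genes, 13 were lower and 0 higher in CiSCs than in MEFs, with a median log2 fold change of -1.92. In MSCs against MEFs 11 were lower and 2 higher, and in CiSCs against MSCs 10 were lower and 1 higher (Nfkbiz), with medians of -1.32 and -0.84. Of all tested genes, 21.3% were lower and 19.6% higher in CiSCs against MEFs. The shares were 20.0% and 22.5% in MSCs against MEFs and 25.1% and 17.7% in CiSCs against MSCs. Tlr2, a sensor of bacterial lipoproteins, had 0.811 and 0.655 CPM in CiSCs, 8.08 and 6.95 CPM in MSCs and 277 and 367 CPM in MEFs. Tlr2 was lower in CiSCs (log2 fold change -8.77 ± 0.27, edgeR adjusted p = 1.49e-05) and in MSCs (log2 fold change -5.42 ± 0.21, edgeR adjusted p = 1.64e-05) than in MEFs. Tnf, a cytokine gene that induces many chemokines, had 0 and 0 CPM in CiSCs, 2.02 and 1.63 CPM in MSCs and 95.5 and 82.3 CPM in MEFs, with 0, 68 and 3471 reads. CiSCs were at least 1254-fold lower than MEFs, taking 3 reads over the group as the limit (edgeR adjusted p = 1.71e-05). Nfkbia, which encodes an inhibitor that NF-kB itself induces, had 16.1 and 14.5 CPM in CiSCs, 54.5 and 56.6 CPM in MSCs and 168 and 240.2 CPM in MEFs, in 3 separate ranges, and was lower in CiSCs than in MEFs (log2 fold change -3.74 ± 0.21, edgeR adjusted p = 4.66e-05). Nfkb2, a subunit gene of the non-canonical pathway, averaged 49.7 ± 0.115 CPM in CiSCs, 45.5 ± 0.675 CPM in MSCs and 187 ± 21.6 CPM in MEFs (SD, n = 2 each). The cytokine gene Il6 had 0.334 and 0.655 CPM in CiSCs, 6.70 and 5.86 CPM in MSCs and 2.98 and 2.91 CPM in MEFs. Its increase in MSCs (log2 fold change 1.09 ± 0.29, edgeR adjusted p = 0.0252) did not pass without the first or second MSC library (adjusted p = 0.160 and 0.103, edgeR).

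All 8 listed proteases that trim or shed chemokines were tested. In CiSCs against MEFs 2 were higher and 3 lower, in MSCs against MEFs 3 were higher and 2 lower, and in CiSCs against MSCs 4 were higher and 2 lower. Of all tested genes, 19.6% were higher and 21.3% lower in the first comparison, 22.5% and 20.0% in the second and 17.7% and 25.1% in the third, and with 8 genes nothing is read from the protease counts. Mmp2, a matrix enzyme that cleaves CXCL12 and CCL7, had 1019 and 1078 CPM in CiSCs, 418 and 479.8 CPM in MSCs and 175 and 246 CPM in MEFs. Like Cxcl12 it was highest in CiSCs and lowest in MEFs, and it was higher in CiSCs than in MEFs (log2 fold change 2.31 ± 0.20, edgeR adjusted p = 2.56e-04) and than in MSCs (log2 fold change 1.22 ± 0.19, edgeR adjusted p = 0.00288). Mmp14, a membrane-anchored collagenase that activates the Mmp2 product, averaged 1048 ± 55.1 CPM in CiSCs, 482 ± 1.40 CPM in MSCs and 1003 ± 168 CPM in MEFs (SD, n = 2 each) and was higher in CiSCs than in MSCs (log2 fold change 1.12 ± 0.16, edgeR adjusted p = 0.00186). Dpp4, which removes the N terminus of CXCL12, had 3.39 and 3.27 CPM in CiSCs, 0.744 and 1.47 CPM in MSCs and 0.860 and 1.09 CPM in MEFs. It was higher in CiSCs than in MEFs (log2 fold change 1.77 ± 0.39, edgeR adjusted p = 0.0126), but not without the first or second CiSC library (adjusted p = 0.0757 and 0.0719, edgeR).

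Mmp12, the macrophage elastase, which cleaves CXCR2 ligands, had 1.29 and 1.26 CPM in CiSCs, 228 and 266 CPM in MSCs and 31.2 and 49.0 CPM in MEFs. MSCs were higher than MEFs (log2 fold change 2.62 ± 0.23, edgeR adjusted p = 2.74e-04) and CiSCs lower than MEFs (log2 fold change -4.97 ± 0.29, edgeR adjusted p = 5.22e-05), so its groups lay in the same order as those of Ccl6. Mmp9, a gelatinase of neutrophils and other cells, had 4.91 and 7.58 CPM in CiSCs, 0.425 and 0.380 CPM in MSCs and 42.4 and 48.0 CPM in MEFs, lowest in MSCs. Mmp9 was lower in CiSCs (log2 fold change -2.85 ± 0.23, edgeR adjusted p = 1.98e-04) and in MSCs (log2 fold change -6.79 ± 0.32, edgeR adjusted p = 2.67e-05) than in MEFs.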

How the data were processed

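RNA of 6 samples (2 CiSC, 2 MSC and 2 MEF libraries) was sequenced, and 1 table of expected counts per gene was deposited for each library. HISAT and the mouse build mm9 are named, per the submitters' processing notes; the counting program, annotation and strand setting are not given in the sources used here. The deposited expected counts are not normalized and include fractional values, so they were rounded to whole numbers for the tests. Genes were named through a RefSeq table by identifier (18891 of 20007 had a symbol), and transcript lengths came from GENCODE.

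Genes passing edgeR's filterByExpr (15272) were fitted with all 6 libraries in edgeR 4.0.16 under R 4.3.3, with TMM scaling, the quasi-likelihood test, 3 residual degrees of freedom and Benjamini-Hochberg adjustment over all tested genes. Fold changes use a prior count of 0.125, the default of the quasi-likelihood fit, and CPM use TMM-scaled library totals. The ± after a log2 fold change is its size divided by the square root of the F statistic. It is an approximate SE, and for groups with few reads it depends on the prior count. The alternatives were median-ratio scaling, no filter, DESeq2 1.42.0, fits of only the compared groups, the replicate number as a block, and leaving out each library. The procedure was tested on simulated data. The members, gene lists and classes were chosen with earlier results of these data known. Ligands whose mean reached 10 CPM in any group are given for every library, and of the other lists up to 4 genes with the smallest adjusted p per comparison. Genes named outside this rule were chosen after their values were seen. Some genes that the rule names are not reported here. The ligand genes Ccl19, Ccl21c, Ccl26, Cxcl11, Ppbp and Xcl1 were not analysed here.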

Additional observations from a re-analysis of the deposited data

How the results depend on the processing

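The count of ligands higher in CiSCs than in MSCs was 3 and became 5 when only these groups were fitted. Without 1 library at a time, the ligands higher ranged from 1 to 4 in CiSCs against MEFs, from 4 to 6 in MSCs against MEFs and from 0 to 5 in CiSCs against MSCs, and those lower from 17 to 20, 11 to 15 and 12 to 14. The genes called over all tested genes ranged from 3395 to 9487 (6250 with all libraries), 3516 to 9745 (6497) and 3910 to 9369 (6534) in the same order, with the lone library of a group assumed to vary like the other groups. Among the 48 fold changes of the 16 ligands above 10 CPM, the sign turned in 3. None of these 3 was called with all libraries or with the turned sign. Cx3cl1 in CiSCs against MEFs was -0.025 without the second and 0.40 without the first MEF library. Cxcl5 in MSCs against MEFs was -0.17 and 0.63. Both values without the first MEF library passed. Ccl2 in CiSCs against MSCs was 0.046 without the second and -0.32 without the first CiSC library. Among the 9 other tested ligands the sign turned without 1 library in 4 comparisons, none of them called: Ccl17 in CiSCs against MEFs, Ccl20 and Ccl25 in CiSCs against MSCs, and Ccl28 in MSCs against MEFs. The cause was not tested. With median-ratio scaling, no filter or DESeq2, these 48 fold changes kept their direction and their side of the threshold, and among the 25 tested ligands DESeq2 lost the call of Ccl5. Same-numbered libraries share only a number: the differences between library 1 and 2 correlated across genes at -0.13 (CiSCs and MSCs), -0.21 (CiSCs and MEFs) and 0.14 (MSCs and MEFs). With the replicate block, 22, 19 and 16 of 25 ligands were called in the 3 comparisons in this order, the same ligands as without it. Depth limits members with few reads in a group, such as Ccl4 and Cxcl3 in CiSCs, where 1 read moves the fold change.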
